A study of Homo sapiens with 9 samples.

Results

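Tight junction and apical polarity genes were examined in AsPC-1 cells, a standard line from a human pancreatic adenocarcinoma, after depletion of STOML2, which encodes the mitochondrial stomatin-like protein 2 (SLP-2). The list of 37 genes was chosen by function, with earlier results of these data known. A row of the array table was taken for a gene by its platform gene symbol. Rows carrying 1 symbol were found for 35 of the 37 genes, among 21448 rows in all, while F11R and SCRIB were not analysed here. The sh1 and sh2 cells carried a plasmid with the first or the second short hairpin RNA against SLP-2, and the control cells carried the same pBAsi-hU6 NEO plasmid left blank. All 3 groups went through Geneticin selection for 3 weeks and were then grown from a single colony, so that each group is 1 clone, measured on 3 arrays. Differences between groups are therefore differences between clones, hairpin and clone cannot be told apart, and p-values reflect no more than how far arrays of the same clone scatter, possibly for technical reasons. Both hairpin groups were set against the same 3 control arrays.

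Tight junctions seal the space between neighbouring epithelial cells at the apical end of their lateral membranes. Claudins form the strands and set which ions pass, occludin and tricellulin shape the strands and the corners where cells meet, and plaque proteins such as ZO-1 and cingulin tie them to actin. The Crumbs, PAR and Scribble polarity complexes place this belt and keep apical and basolateral membranes apart. Ductal epithelium of the pancreas relies on it to keep pancreatic juice inside the duct, and carcinoma cells can lose parts of it when they turn mesenchymal.

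Values are log2 signals as deposited, with array medians between 6.57 and 6.65. Signal near background was judged by a proxy, the lower quartile of all row means (4.21), since the sources used here give no detection calls. STOML2 was at 8.36, 8.42 and 8.18 on the sh1 arrays and 7.85, 7.99 and 7.35 on the sh2 arrays, against 13.70, 13.66 and 13.65 on the control arrays, far lower in both hairpin clones. The ductal carcinoma markers KRT8, KRT18 and KRT19 were far above the proxy in all groups, with means of at least 13.4, and CDH1 (E-cadherin) was above it too, whereas CEACAM6 and S100P stayed between 4.22 and 6.02 on the 9 arrays, under the median of the row means (6.61). The mesenchymal marker VIM averaged 15.7 in sh1 cells, 16.4 in sh2 cells and 16.4 in control cells. CDH2, another mesenchymal marker, averaged 6.81 and 5.84 in sh1 and sh2 cells and 11.9 in control cells. All 6 endothelial markers and 4 of 5 leukocyte markers, PTPRC among them, were under the median in every group, the exception being CD68. The mean of the 10 measured mesenchymal markers per array was 6.76 to 6.83 in sh1 cells, 6.62 to 6.72 in sh2 cells and 7.73 to 7.83 in control cells, and its part in the results below was not tested. Of these markers 1 rose and 4 fell in sh1 cells, where 18.8% of all rows passed, and 0 rose and 3 fell in sh2 cells, where 16.3% did. One of the 4 was VIM on chromosome 10, at -0.76 (adjusted p = 0.000895). With the shift of its chromosomal neighbours taken off, VIM was at -0.29 (adjusted p = 0.162), or at 0.34 (adjusted p = 0.0901) with brighter neighbours, and did not pass. Corrected in the first way, COL1A1 was lower in sh1 and sh2 cells, at -2.91 and -3.25 (limma, adjusted p = 6.23e-08 and 2.08e-08). COL1A2 was then at -0.92 and -0.78 (adjusted p = 0.00303 and 0.0106). THY1, the marker that rose in sh1 cells, was at 0.81 there after this correction (adjusted p = 0.00169). In such pooled RNA, more cells of a kind and more RNA per cell cannot be told apart.

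More members of the list rose than fell in both clones, with more calls in sh1 than in sh2 cells. Occludin, tricellulin, LSR, ZO-1, cingulin and PATJ rose in sh1 cells and did not pass in sh2 cells. Claudins 4 and 7, EPCAM, MAL2 and the transcription factor ELF3 rose in both. In sh1 cells 13 of the 35 members rose and 2 fell, or 15 in all, where 9.76% of all rows rose and 9.0% fell, 18.8% in all (limma, adjusted p under 0.05 over all rows). In sh2 cells 6 members rose and 2 fell, where 8.33% of all rows rose and 7.98% fell, 16.3% in all. Those 6 included EPCAM, MAL2 and ELF3, grouped here as surface, traffic or transcription factor genes, and JAM2 near background. Of the 4 plaque and 6 polarity members, 0 rose in sh2 cells and 1 polarity member fell. The median log2 difference of the members was 0.22 in sh1 cells and 0.18 in sh2 cells, beside 0.02 in both for all rows. Rising in both were 5 members, where 4.28% of all rows did, falling in both was 1, where 4.65% did, and 0 passed in opposite directions, where 0.536% did. These counts rest on the same 3 control arrays, and the list was not chosen blind to these data. The groups' arrays did not overlap for 19 members in sh1 cells against 34.5% of all rows, and for 17 in sh2 cells against 32.5%. Counted over the comparisons of sh1 with control, sh2 with control and sh2 with sh1, 18 members passed at least once, beside 27.6% of all rows. Among these, 14 came from the 19 members with a mean above the median of the row means, where 43.6% of rows passed at least once, and 4 from the 16 below it, where 11.6% did.

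Among claudins, the strand-forming proteins, CLDN4 and CLDN7 rose in both clones and CLDN3 rose in sh1 cells. CLDN4, a claudin of tight epithelia and a known antigen of pancreatic carcinoma, was at 13.75, 14.46 and 14.12 in sh1 cells and 13.79, 14.04 and 13.80 in sh2 cells, against 12.26, 11.64 and 12.20 in control cells. Every array of both hairpin clones lay above every control array. The difference was 2.08 ± 0.21 (SE) in sh1 cells, a 4.22-fold higher signal (adjusted p = 2.98e-05), and 1.84 ± 0.21 in sh2 cells, 3.59-fold (adjusted p = 9.44e-05). The clones did not pass against each other (sh2 minus sh1 -0.23 ± 0.21, adjusted p = 0.572). CLDN7, a claudin that binds EPCAM at the basolateral membrane, was at 11.05, 11.28 and 11.16 in sh1 cells and 11.34, 11.47 and 11.28 in sh2 cells, against 10.04, 10.13 and 10.21 in control cells. Again no hairpin array reached down to the control arrays, and the differences were 1.04 ± 0.12 (adjusted p = 0.000117) and 1.24 ± 0.12 (adjusted p = 3.95e-05). CLDN3, the close relative of CLDN4 beside it on chromosome 7, averaged 6.47 ± 0.19 (SD, n = 3) in sh1 cells, 5.81 ± 0.16 in sh2 cells and 5.57 ± 0.16 in control cells. It rose by 0.90 ± 0.15 (SE) in sh1 cells (adjusted p = 0.00125) and differed by 0.24 ± 0.15 in sh2 cells (adjusted p = 0.345).

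The promoters of the claudins that rose in both clones are shown because the members moved together there. The sequences run from 250 bases before to 50 bases after the RefSeq start on GRCh38.p14, in the direction of the gene. In the promoters printed here, capitals mark CAGGTG or its other strand CACCTG, the E-box that ZEB and SNAI repressors bind, and neither of these windows holds it. The CLDN4 window is chr7:73830746-73831045 on the plus strand and the CLDN7 window chr17:7263164-7263463 on the minus strand.
CLDN4: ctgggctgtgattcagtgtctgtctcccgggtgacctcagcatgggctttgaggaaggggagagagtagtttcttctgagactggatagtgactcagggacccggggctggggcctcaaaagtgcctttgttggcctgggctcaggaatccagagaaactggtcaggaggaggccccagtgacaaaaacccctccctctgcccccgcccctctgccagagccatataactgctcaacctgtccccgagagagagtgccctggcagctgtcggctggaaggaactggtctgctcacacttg
CLDN7: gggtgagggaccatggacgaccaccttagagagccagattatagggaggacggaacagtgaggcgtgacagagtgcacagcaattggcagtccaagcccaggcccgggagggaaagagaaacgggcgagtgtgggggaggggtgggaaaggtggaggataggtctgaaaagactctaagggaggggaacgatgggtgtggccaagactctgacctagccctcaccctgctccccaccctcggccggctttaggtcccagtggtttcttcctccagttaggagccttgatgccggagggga

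The other 12 measured claudins on the list did not pass against the control in either clone. CLDN1, a widely expressed barrier claudin with a mean of 12.9 in control cells, lay higher on all arrays of both clones, with differences of 0.35 ± 0.12 (SE, adjusted p = 0.0791) in sh1 cells and 0.32 ± 0.12 (adjusted p = 0.117) in sh2 cells. CLDN10, which forms ion pores, averaged 10.53 in sh1 cells, 11.02 in sh2 cells and 10.65 in control cells. Its one call was between the clones, where it was higher in sh2 than in sh1 cells by 0.49 ± 0.13 (adjusted p = 0.0293). That call was lost without sh1 array 1 (adjusted p = 0.0781), sh1 array 3 (0.106), sh2 array 1 (0.0731) or sh2 array 2 (0.11). It was also lost with the shift of its chromosomal neighbours taken off, where CLDN10 differed by 0.22 (adjusted p = 0.422), or by 0.18 (adjusted p = 0.524) with brighter neighbours. CLDN12 averaged 10.03 in sh1 cells, 10.11 in sh2 cells and 10.36 in control cells. CLDN2, which forms cation pores, CLDN18, a claudin of stomach and of many pancreatic carcinomas, and CLDN6, CLDN8 and CLDN16 had means under the lower quartile in all 3 groups. CLDN9, CLDN11, CLDN14 and CLDN15 had means between 4.43 and 5.94. Over all 15 claudins the differences ran between -0.46 and 2.08 in sh1 cells and between -0.26 and 1.84 in sh2 cells. In sh1 cells 3 of the 15 passed, 20.0%, beside 18.8% of all rows. In sh2 cells 2 passed, 13.3%, beside 16.3%, so both shares were near those of all rows. There were 0 lower calls in either clone, where 9.0% and 7.98% of all rows fell (limma, with 1 and 0 lower at an unadjusted p under 0.05). Corrected for neighbouring genes, as described with the neighbours, CLDN9 and CLDN6 did pass as lower. As measured, they differed by -0.29 and 0.04 in sh1 cells and by -0.08 and -0.26 in sh2 cells, and did not pass.

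Among the other membrane proteins of the junction, occludin, tricellulin and LSR rose in sh1 cells and did not pass in sh2 cells, and sh2 was below sh1 in all 3. OCLN (occludin) was at 14.67, 14.81 and 14.78 in sh1 cells and 13.66, 13.93 and 13.98 in sh2 cells, against 13.68, 13.65 and 13.75 in control cells. The sh1 arrays stood above the others, and the sh2 arrays overlapped the control arrays. OCLN rose by 1.06 ± 0.13 (SE) in sh1 cells (adjusted p = 0.000124), differed by 0.16 ± 0.13 in sh2 cells (adjusted p = 0.463) and was lower in sh2 than in sh1 cells, by a difference of -0.90 (adjusted p = 0.000688). MARVELD2 encodes tricellulin, the protein of the corners where 3 cells meet. It averaged 10.53 ± 0.19 (SD, n = 3) in sh1 cells, 9.62 ± 0.21 in sh2 cells and 9.60 ± 0.21 in control cells, a rise of 0.94 ± 0.16 (SE) in sh1 cells (adjusted p = 0.00169) and a difference of 0.02 ± 0.16 in sh2 cells (adjusted p = 0.952). OCLN and MARVELD2 are near neighbours on chromosome 5. MARVELD3, the third member of the occludin family, differed by -0.20 and -0.07 in sh1 and sh2 cells (adjusted p = 0.667 and 0.908).

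LSR, angulin-1, which recruits tricellulin to cell corners, had the largest difference among these membrane proteins in sh1 cells. It was at 12.28, 12.27 and 12.11 in sh1 cells and 10.24, 10.13 and 9.63 in sh2 cells, against 9.99, 9.36 and 9.59 in control cells. The sh1 arrays were far above the other arrays, and sh2 and control arrays overlapped. The rise in sh1 cells was 2.57 ± 0.19 (SE, adjusted p = 3.23e-06), 5.95-fold, the difference in sh2 cells was 0.35 ± 0.19 (adjusted p = 0.271), and sh2 minus sh1 was -2.22 (adjusted p = 1.62e-05). The junctional adhesion molecules moved differently. JAM3 averaged 11.9 ± 0.17 (SD, n = 3) in sh1 cells, 11.5 ± 0.13 in sh2 cells and 12.4 ± 0.11 in control cells. It fell by 0.88 in sh2 cells (adjusted p = 0.000973) and by 0.44 in sh1 cells (adjusted p = 0.0443). The sh1 call for JAM3 was lost on leaving out any array but sh1 array 2 or sh2 array 2, with adjusted p = 0.0508 to 0.148. JAM2, best known from endothelium, rose by 0.57 ± 0.14 (SE) in sh2 cells (adjusted p = 0.0175) and differed by 0.43 ± 0.14 in sh1 cells (adjusted p = 0.0597). Its control mean is under the proxy for background, so the rise is given only as a bound against the lower quartile, at least 1.03-fold. Its means were 4.11 in sh1 cells and 3.69 in control cells, under the lower quartile, and 4.26 in sh2 cells, just above it. The sh2 call of JAM2 was lost without control array 1 (adjusted p = 0.0525), control array 2 (0.0622) or sh2 array 3 (0.0634).

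The promoter of OCLN, shown because it holds the E-box and its gene rose in sh1 cells, spans chr5:69492297-69492596 on the plus strand of GRCh38.p14. The motif, in capitals, begins at position -33 relative to the start.
OCLN: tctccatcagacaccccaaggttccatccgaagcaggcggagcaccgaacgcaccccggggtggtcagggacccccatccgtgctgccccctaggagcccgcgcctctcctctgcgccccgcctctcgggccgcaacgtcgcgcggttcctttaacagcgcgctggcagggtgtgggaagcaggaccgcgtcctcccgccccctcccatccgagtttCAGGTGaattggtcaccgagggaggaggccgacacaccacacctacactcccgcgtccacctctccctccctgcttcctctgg

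**Figure D1:**
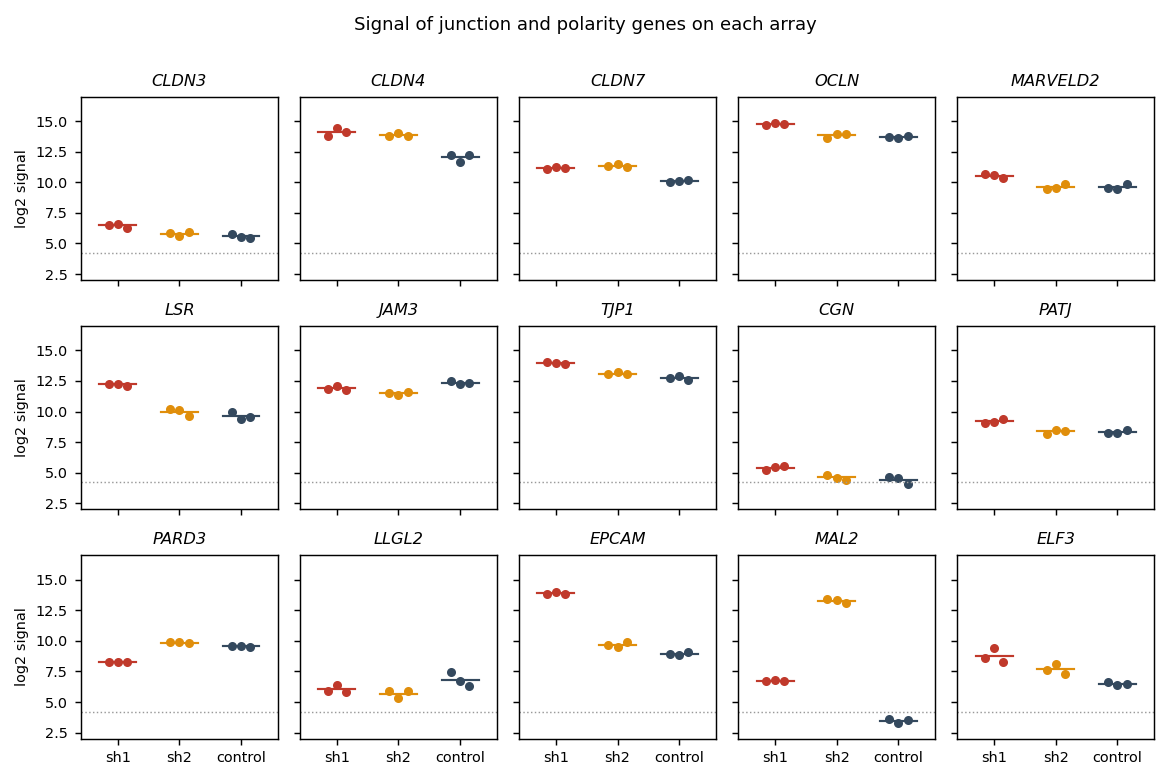
Log2 signal of 15 members on each of the 9 arrays, with the sh1, sh2 and control clones from left to right, 1 point per array and a bar at the mean of 3; the dotted line marks the lower quartile of the row means (4.21). CLDN4 and CLDN7 are raised in both hairpin clones, OCLN, MARVELD2, LSR, TJP1, CGN and PATJ in sh1, and PARD3 is lowered in sh1.

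Of the 4 plaque members, TJP1 and CGN rose in sh1 cells, and TJP3 and CGNL1 did not pass. TJP1 encodes ZO-1, the scaffold that binds claudins, occludin and actin. It was at 14.02, 13.97 and 13.88 in sh1 cells and 13.04, 13.21 and 13.08 in sh2 cells, against 12.73, 12.90 and 12.62 in control cells. The 3 groups did not overlap one another. TJP1 rose by 1.21 ± 0.12 (SE) in sh1 cells (adjusted p = 3.95e-05), while the difference of 0.36 ± 0.12 in sh2 cells did not pass (adjusted p = 0.0751). CGN, cingulin, which links the plaque to actomyosin and microtubules, averaged 5.40 ± 0.17 (SD, n = 3) in sh1 cells, 4.62 ± 0.22 in sh2 cells and 4.44 ± 0.28 in control cells. Its rise in sh1 cells was 0.96 ± 0.17 (SE, adjusted p = 0.0022), from a control level close to the lower quartile. TJP3, which encodes ZO-3, differed by 0.47 ± 0.18 and 0.39 ± 0.18 in sh1 and sh2 cells (adjusted p = 0.0928 and 0.17). CGNL1, paracingulin, had means under the lower quartile in all groups. So 2 of 4 rose in sh1 cells, where 9.76% of all rows did, and 0 in sh2 cells, where 8.33% did (limma, with 2 higher at an unadjusted p under 0.05).

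The polarity genes were mixed. PATJ, the scaffold of the Crumbs complex, rose in sh1 cells, whereas PARD3, the core scaffold of the PAR complex, fell there. PATJ averaged 9.21 ± 0.17 (SD, n = 3) in sh1 cells, 8.37 ± 0.17 in sh2 cells and 8.30 ± 0.14 in control cells, a rise of 0.91 ± 0.14 (SE) in sh1 cells (adjusted p = 0.000932). PARD3 was at 8.31, 8.24 and 8.31 in sh1 cells and 9.87, 9.87 and 9.81 in sh2 cells, against 9.55, 9.55 and 9.54 in control cells. The arrays of each clone lay very close together and the 3 groups were apart. PARD3 fell by 1.26 in sh1 cells (adjusted p = 1.09e-05) and differed by 0.30 ± 0.11 (SE) in sh2 cells (adjusted p = 0.0881), so that sh2 minus sh1 was 1.56 ± 0.11 (adjusted p = 3.07e-06).

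LLGL2, a basolateral protein of the Scribble module that opposes the PAR complex, was at 5.89, 6.41 and 5.82 in sh1 cells and 5.88, 5.32 and 5.87 in sh2 cells, against 7.47, 6.74 and 6.30 in control cells. The control arrays were spread over more than 1 log2 unit, and the lowest of them lay under the highest sh1 array. LLGL2 fell by 1.15 in sh2 cells (adjusted p = 0.015) and differed by -0.80 ± 0.28 (SE) in sh1 cells (adjusted p = 0.0705). Its sh2 call was lost without control array 1 (-0.83, adjusted p = 0.0505) without sh2 array 2 (-0.96, adjusted p = 0.0624) and with brighter chromosomal neighbours taken off (-0.86, adjusted p = 0.0564). PRKCI, the atypical protein kinase C of the PAR complex, rose by 0.44 ± 0.12 (SE) in sh1 cells (adjusted p = 0.0229) and differed by 0.37 ± 0.12 in sh2 cells (adjusted p = 0.0545), with all hairpin arrays above all control arrays. That sh1 call was lost without control array 1, control array 2, sh1 array 1 or sh1 array 2 (adjusted p = 0.066 to 0.0715). PARD6B, the partner of PRKCI, differed by 0.46 ± 0.15 in sh1 cells (adjusted p = 0.0609), and CRB3, the epithelial Crumbs protein, by 0.22 ± 0.16 (adjusted p = 0.42). In sh2 cells they differed by 0.20 ± 0.15 (adjusted p = 0.455) and by -0.02 ± 0.16 (adjusted p = 0.952).

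EPCAM was most raised in sh1 cells and MAL2 in sh2 cells. EPCAM, an adhesion protein that stabilises claudins, was at 13.83, 13.98 and 13.83 in sh1 cells and 9.66, 9.50 and 9.87 in sh2 cells, against 8.90, 8.81 and 9.11 in control cells. The 3 groups did not overlap, and sh2 lay nearer to the control. EPCAM rose by 4.94 ± 0.14 (SE) in sh1 cells, 30.7-fold (adjusted p = 1.77e-09). Its rise in sh2 cells was 0.74 ± 0.14 (adjusted p = 0.00361), and sh2 minus sh1 was -4.20 ± 0.14 (adjusted p = 1.92e-08). MAL2, which carries proteins across the cell to the apical membrane, was at 6.76, 6.81 and 6.71 in sh1 cells and 13.41, 13.30 and 13.10 in sh2 cells, against 3.65, 3.25 and 3.52 in control cells. The control arrays were under the lower quartile, near background, and both clones stood far above them. Set against the lower quartile in place of the control signal, MAL2 was at least 5.84-fold higher in sh1 cells and at least 532.5-fold higher in sh2 cells. These bounds were not tested. On the measured signals, limma gave adjusted p = 4.16e-08 in sh1 cells and 6.26e-12 in sh2 cells. MAL2 in sh2 cells exceeded that in sh1 cells by 6.51 ± 0.14 (adjusted p = 6.30e-10). RAB25, a small GTPase of apical recycling, averaged 4.15 in sh1 cells, 4.20 in sh2 cells and 4.65 in control cells, near the lower quartile in all groups, with differences of -0.50 ± 0.22 and -0.45 ± 0.22 (adjusted p = 0.159 and 0.218).

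ELF3, an epithelial ETS transcription factor, rose in both clones. It was at 8.64, 9.38 and 8.24 in sh1 cells and 7.62, 8.14 and 7.33 in sh2 cells, against 6.65, 6.37 and 6.50 in control cells. The hairpin arrays varied more than the control arrays, but all lay above them. The rise was 2.25 ± 0.27 (SE) in sh1 cells (adjusted p = 0.000129), 4.75-fold, and 1.19 ± 0.27 in sh2 cells (adjusted p = 0.0108), 2.28-fold. The sh2 minus sh1 difference of -1.06 ± 0.27 (adjusted p = 0.0266) was lost without sh1 array 1, sh1 array 2, sh2 array 1 or sh2 array 3 (-1.11 to -0.74, adjusted p = 0.0561 to 0.1). The ELF3 promoter, chr1:202010337-202010636 on the plus strand of GRCh38.p14, is shown because the gene rose in both clones and its window holds the E-box, in capitals, beginning at position -120 relative to the start.
ELF3: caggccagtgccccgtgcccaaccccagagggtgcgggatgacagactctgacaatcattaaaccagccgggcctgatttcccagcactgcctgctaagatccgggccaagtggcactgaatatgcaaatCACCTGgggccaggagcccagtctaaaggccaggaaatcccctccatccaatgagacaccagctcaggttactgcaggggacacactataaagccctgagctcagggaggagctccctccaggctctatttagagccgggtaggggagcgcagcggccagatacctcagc

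Set directly against each other, sh2 cells were higher than sh1 cells for 3 members and lower for 9, where 5.73% of all rows were higher and 5.57% lower, 11.3% in all. The arrays of the clones did not overlap for 16 members, against 27.1% of all rows. The 3 higher ones were CLDN10, PARD3 and MAL2. Of the 13 members that rose in sh1 cells, 9 were lower in sh2 than in sh1 cells, namely CGN, CLDN3, ELF3, EPCAM, LSR, MARVELD2, OCLN, PATJ and TJP1. These 2 counts share the sh1 arrays and are not independent. CLDN4, CLDN7, PRKCI and JAM3 did not pass between the clones, with sh2 minus sh1 at -0.23 ± 0.21 (SE), 0.20 ± 0.12, -0.07 ± 0.12 and -0.44 ± 0.14. The sh2 minus sh1 call of CLDN3 (-0.66, adjusted p = 0.0133) was lost without sh1 array 2 (adjusted p = 0.0501) or sh2 array 2 (0.0594) and with brighter neighbours taken off (-0.53, adjusted p = 0.052), and that of CGN (-0.79, adjusted p = 0.0119) without sh1 array 3 (0.0507) or sh2 array 3 (0.0504).

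Genes of the pathway outside the list are given beside the 18.8% of all rows that passed in sh1 cells and the 16.3% in sh2 cells. None of the 8 other claudins (CLDN5, CLDN17, CLDN19, CLDN20 and CLDN22 to CLDN25) passed in either clone (limma, with 0 in sh1 cells and 2 in sh2 cells at an unadjusted p under 0.05), and all had means under the median of the row means. Of 8 other membrane proteins of junctions, CXADR, the coxsackievirus and adenovirus receptor, rose in sh1 cells by 1.36 ± 0.14 (SE, adjusted p = 3.95e-05) and differed by 0.36 ± 0.14 in sh2 cells (adjusted p = 0.115). VSIG1, a junctional adhesion protein of stomach epithelium, rose in sh2 cells by 3.07 ± 0.18 (adjusted p = 5.53e-07) and differed by 0.39 ± 0.18 in sh1 cells (adjusted p = 0.184). Of 13 other plaque proteins, 3 rose and 0 fell in sh1 cells, and 1 rose and 2 fell in sh2 cells. SHROOM3, an actin-binding protein of apical constriction, rose by 2.46 ± 0.13 in sh1 cells (adjusted p = 2.22e-07) and by 0.55 ± 0.13 in sh2 cells (adjusted p = 0.0138), a call lost with brighter neighbours taken off (0.38, adjusted p = 0.0883). AMOTL1, an angiomotin-like junction protein, rose by 0.91 ± 0.21 in sh1 cells (adjusted p = 0.0091) and fell by 1.26 in sh2 cells (adjusted p = 0.00146).

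Of 24 other polarity complex genes, 4 rose and 2 fell in sh1 cells, and 3 rose and 4 fell in sh2 cells. LRRC1, a relative of Scribble, fell by 0.79 in sh2 cells (adjusted p = 0.000715) and differed by -0.36 ± 0.12 (SE) in sh1 cells (adjusted p = 0.0547). Its 40 nearest genes on chromosome 6 were at -0.24 in sh1 cells and -0.20 in sh2 cells. With that shift taken off, LRRC1 was still lower in sh2 cells, at -0.60 (adjusted p = 0.00403). In sh1 cells it was then at -0.12 and did not pass (adjusted p = 0.554). Its brighter neighbours, a version chosen after seeing the data, were at -0.77 in sh1 cells and -0.67 in sh2 cells. Against those, LRRC1 was at -0.13 in sh2 cells (adjusted p = 0.519) and higher in sh1 cells, at 0.41 (adjusted p = 0.0285). PARD6G, with all means under the row median, fell by 0.70 and 0.72 in sh1 and sh2 cells (adjusted p = 0.0113 and 0.0109). Its hairpin means were under the proxy for background, so the fall is bounded only at 1.30-fold or more in each clone. DLG5, a scaffold of the Discs large family, fell by 0.48 and 0.72 (adjusted p = 0.0464 and 0.00728). With the shift of the 40 nearest genes taken off, the sh1 calls of PARD6G (-0.57, adjusted p = 0.0518) and DLG5 (-0.38, adjusted p = 0.114) were lost. With brighter neighbours the sh1 call of PARD6G was kept (-0.77, adjusted p = 0.00759) and that of DLG5 was not (-0.35, adjusted p = 0.128). MARK2, the PAR-1 kinase, rose by 0.69 ± 0.14 in sh1 cells (adjusted p = 0.00392). Of 16 other genes of apical traffic and membrane, 4 rose and 2 fell in each clone. PODXL, podocalyxin, an early apical membrane sialomucin, averaged 8.81 ± 0.29 (SD, n = 3) in sh1 cells, 12.2 ± 0.14 in sh2 cells and 12.5 ± 0.10 in control cells, and fell by 3.69 in sh1 cells (adjusted p = 4.10e-08). RAB27B and SYTL2, a GTPase and an effector protein of vesicle docking, rose in sh2 cells by 2.08 ± 0.14 (SE, adjusted p = 1.57e-06) and 1.65 ± 0.14 (adjusted p = 1.35e-05), and SYTL2 rose in sh1 cells by 1.06 ± 0.14 (adjusted p = 0.000326). STX3, the apical membrane fusion protein, rose by 1.15 ± 0.12 in sh1 cells (adjusted p = 4.47e-05).

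Of 8 known repressors of junction genes, SNAI2, ZEB1 and TWIST2 fell in sh1 cells and SNAI2 fell in sh2 cells, and the other 5 did not pass in sh1 cells. SNAI2 was at 4.82, 4.33 and 4.32 in sh1 cells and 4.77, 4.75 and 4.04 in sh2 cells, against 7.42, 7.18 and 7.23 in control cells. Both hairpin clones were near the lower quartile, and SNAI2 fell by 2.79 in sh1 cells (adjusted p = 3.23e-06) and by 2.76 in sh2 cells (adjusted p = 4.01e-06). ZEB1 was at 10.11, 10.22 and 9.88 in sh1 cells and 11.62, 11.62 and 11.60 in sh2 cells, against 11.73, 11.69 and 11.68 in control cells. It fell by 1.63 in sh1 cells (adjusted p = 3.65e-06) and differed by -0.09 ± 0.12 (SE) in sh2 cells (adjusted p = 0.722). TWIST2 fell by 0.71 in sh1 cells (adjusted p = 0.00261), and TCF4 rose by 0.79 ± 0.15 in sh2 cells (adjusted p = 0.00366). Of the 8 measured repressors, 0 rose and 3 fell in sh1 cells (limma, with 0 and 4 at an unadjusted p under 0.05), and 1 rose and 1 fell in sh2 cells. Of all rows, 9.76% rose and 9.0% fell in sh1 cells, and 8.33% and 7.98% in sh2 cells. With the shift of its 40 nearest genes taken off, TWIST1 was lower in sh2 cells (-0.56, adjusted p = 0.0162). Brighter neighbours gave -0.82 there (adjusted p = 0.000576), and made ZEB2 lower in sh1 cells (-0.52, adjusted p = 0.0156). Of 13 other epithelial transcription factors, 4 rose and 0 fell in sh1 cells (limma, with 6 and 1 at an unadjusted p under 0.05), and 1 rose and 1 fell in sh2 cells. KLF5 rose in both clones, by 1.80 ± 0.17 (SE) in sh1 cells (adjusted p = 2.19e-05) and by 3.32 ± 0.17 in sh2 cells (adjusted p = 1.57e-07). KLF5, a Krüppel-like factor of proliferating epithelium, averaged 6.84 ± 0.24 (SD, n = 3) in sh1 cells, 8.36 ± 0.06 in sh2 cells and 5.04 ± 0.30 in control cells. GRHL3, a grainyhead-like factor of barrier formation, rose by 0.83 ± 0.16 (SE) in sh1 cells (adjusted p = 0.00348), as did FOXA1 by 0.67 ± 0.18 (adjusted p = 0.0251). In sh2 cells GRHL3 did not pass as measured. With its neighbours' shift taken off, GRHL3 passed as higher in sh1 cells (0.60, adjusted p = 0.0229) and lower in sh2 cells (-0.58, adjusted p = 0.0318). Brighter neighbours gave 0.62 (adjusted p = 0.0162) and -0.51 (adjusted p = 0.0433). TFCP2L1 fell by 1.74 in sh2 cells (adjusted p = 5.14e-05). CDH1, E-cadherin, a ductal marker, rose by 2.03 ± 0.16 in sh1 cells (adjusted p = 4.02e-06) and fell by 0.52 in sh2 cells (adjusted p = 0.0419), a call lost after either neighbour correction (-0.39, adjusted p = 0.119, and -0.41, adjusted p = 0.109). Of the 9 ductal markers, 3 rose and 1 fell in sh1 cells, and 2 rose and 2 fell in sh2 cells. KRT19, a keratin of duct cells, fell by 1.69 in sh1 cells (adjusted p = 1.74e-05) and by 0.57 in sh2 cells (adjusted p = 0.0286). KRT18 and KRT8, the keratin pair of simple epithelia, rose by 1.21 and 0.71 in sh1 cells (adjusted p = 0.000138 and 0.00114) and by 1.27 and 0.70 in sh2 cells (adjusted p = 0.000122 and 0.00152). The sh2 call of KRT8 was lost with brighter neighbours taken off (0.34, adjusted p = 0.0678).

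**Figure D2:**
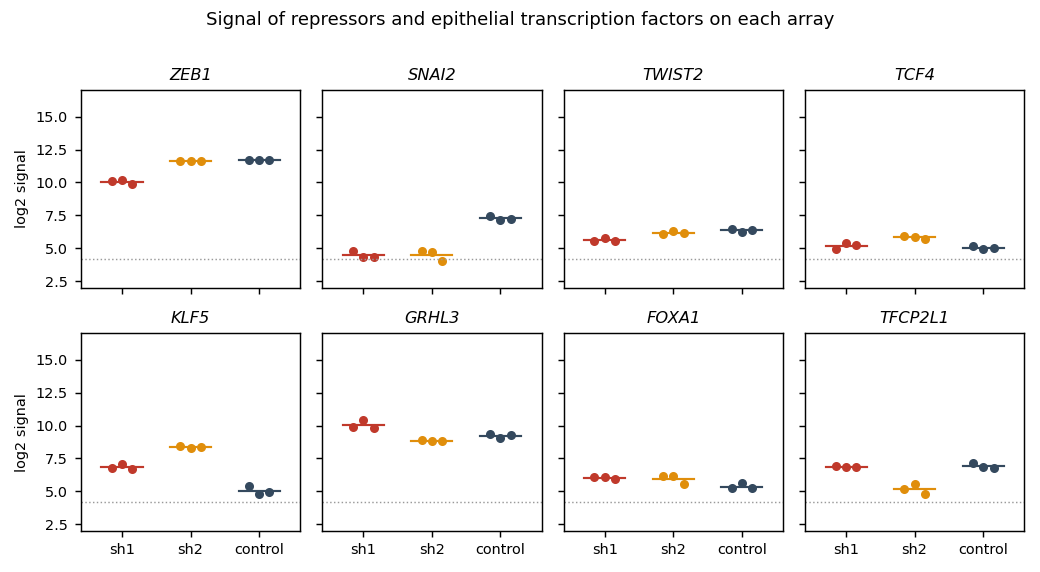
Log2 signal of 4 repressors (top) and 4 epithelial transcription factors (bottom) on each of the 9 arrays, with the sh1, sh2 and control clones from left to right, 1 point per array and a bar at the mean of 3; the dotted line marks the lower quartile of the row means (4.21). SNAI2 is low in both hairpin clones, ZEB1 in sh1, and KLF5 is above the control in both.

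RefSeq promoter windows were found for 25 of the 35 measured members. The E-box CAGGTG, on either strand, lay in 9 of the 25, 36.0%, beside 20.6% of the 35116 promoters in the table. Among the 11 with a window that rose in sh1 cells it lay in 5 (CLDN3, OCLN, TJP1, PATJ and ELF3), and among the other 14 in 4 (CLDN6, CLDN18, CRB3 and RAB25). CLDN4, CLDN7 and LSR, which rose, had none, and CRB3, which did not pass, had 5. These matches describe letters in a window and do not show binding.

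Some members lie among genes that shifted as a block. For each member the median difference of its 40 nearest measured genes was computed, with gene order from RefSeq (GRCh38.p14). In sh1 cells this median was within 0.3 of 0 for 31 of 35 members and in sh2 cells for 33. With neighbours limited to genes above the median signal, it was so for 26 of 35 in each clone. PARD3, on chromosome 10, had the lowest, at -0.84 in sh1 cells. With the neighbours' shift taken off each array, PARD3 was still lower in sh1 cells, at -0.42 (adjusted p = 0.029), but with neighbours limited to genes above the median signal, a version chosen after seeing the data, it was -0.33 and no longer passed (adjusted p = 0.0822). Its difference of 1.56 between the clones was 0.73 (adjusted p = 0.00143) or 0.60 (adjusted p = 0.00641) after these corrections. ZEB1, on the same chromosome, had neighbours at -0.74 in sh1 cells and a corrected difference of -0.89 (adjusted p = 0.000264). TJP1, on chromosome 15, had neighbours at 0.26, or 0.73 with the brighter neighbours, and its corrected rise in sh1 cells was 0.94 (adjusted p = 0.000276) or 0.48 (adjusted p = 0.0317). Its difference between the clones, -0.85 (adjusted p = 0.000922) as measured, was -0.38 (adjusted p = 0.106) against the brighter neighbours. OCLN and MARVELD2 had neighbours at -0.12 in sh1 cells and -0.33 in sh2 cells. Corrected for these, OCLN passed in sh2 cells as well (0.49, adjusted p = 0.0157), and it remained higher in sh1 cells (1.18, adjusted p = 1.95e-05). The same correction gave lower calls as well, for CLDN9 in sh1 cells (-0.66, adjusted p = 0.0126) and for CLDN6 in sh2 cells (-0.52, adjusted p = 0.0144), where the neighbours' medians were 0.37 and 0.26. With brighter neighbours, CLDN9 (-0.88, adjusted p = 0.00221), CLDN6 (-0.55, adjusted p = 0.0117) and CGNL1 (-0.69, adjusted p = 0.0464) were lower in sh1 cells and CLDN6 in sh2 cells (-0.67, adjusted p = 0.00412). CLDN6 and CGNL1 lie under the lower quartile in all groups. As measured, CLDN6 differed by 0.04 and CLDN9 by -0.29 in sh1 cells, where the brighter neighbours of both were at 0.58. TJP3 became a higher call in sh1 cells (0.64, adjusted p = 0.0199), and CLDN1 likewise (0.41, adjusted p = 0.0439). With brighter neighbours, TJP3 was higher in sh1 cells (0.77, adjusted p = 0.00545) and in sh2 cells (0.74, adjusted p = 0.00864), CRB3 in sh1 cells (0.58, adjusted p = 0.0312) and CLDN16 in sh2 cells (0.58, adjusted p = 0.0479). CLDN16 lies under the lower quartile in all groups, and TJP3 does in control cells. Against brighter neighbours, the calls of JAM3 in sh1 cells (-0.39, adjusted p = 0.0753) and JAM2 in sh2 cells (0.39, adjusted p = 0.0975) were lost. The neighbours of CLDN4, CLDN7, LSR, EPCAM, MAL2 and ELF3 shifted by at most 0.24 in either clone, and these genes kept their calls after correction.

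**Figure D3:**
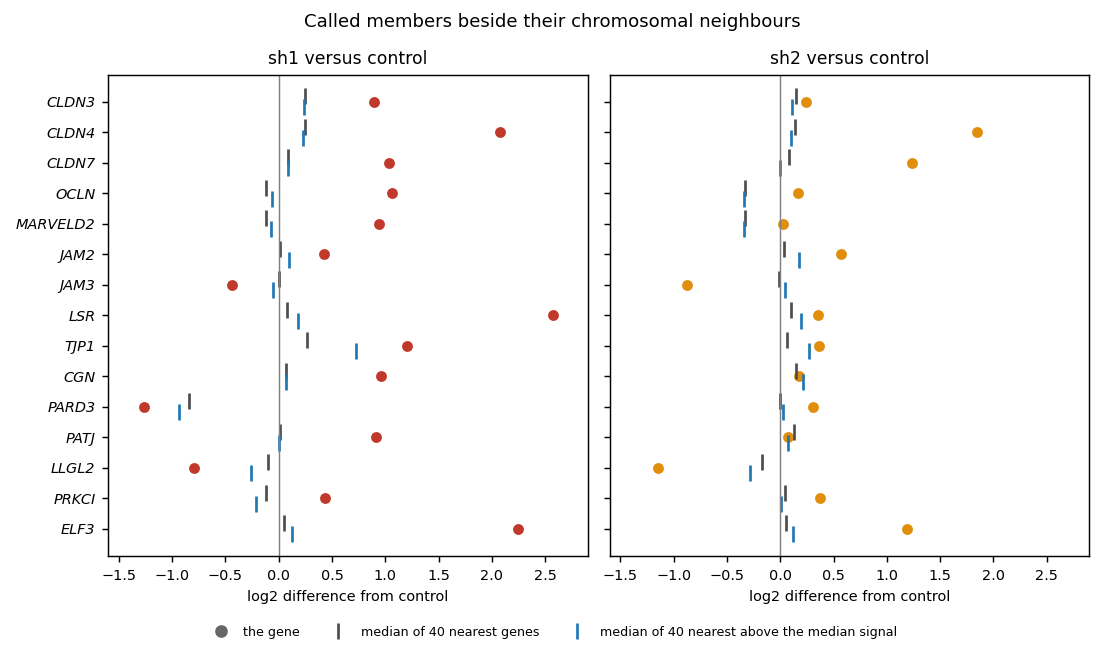
Log2 difference from the control clone of each member called in sh1 or sh2 cells (coloured points), except EPCAM and MAL2, beside the median difference of its 40 nearest measured genes (dark ticks) and of its 40 nearest genes with a signal above the median (blue ticks), for sh1 cells (left) and sh2 cells (right). The ticks lie near 0 for most genes, and the ticks of PARD3 and TJP1 lie on the side of the gene itself in sh1 cells.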

How the data were processed

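Total RNA (100 ng per array, Nucleospin kit) was labelled for 1-colour whole-transcript arrays (WT Plus, biotin), per the labels' protocols. The authors summarised and normalized the signals with Transcriptome Analysis Console, per the submitters' processing notes. The sources used here give neither its version and settings nor the build. The deposited values were taken to be log2 signals because they lie between 2.03 and 18.57 with near-identical distributions, and were used without further scaling. Of 21448 rows, 17709 carry 1 gene symbol of the platform annotation and 3739 none. Every row entered 1 linear model over the 9 arrays (limma 3.58.1, R 4.3.3), with Benjamini-Hochberg adjustment over all rows of each comparison and calls at an adjusted p under 0.05. The code was tested on simulated data. SE comes from the model, SD from 3 arrays. No member had more than 1 row. Array numbers were not taken as pairs, since deviations of same-numbered arrays correlated at -0.04 to 0.18, with 2 of 9 pairs over 0.1. Alternatives changed the scaling, filter, prior, samples, block, size threshold, neighbours and arrays. The number of arrays limits precision. The members and gene lists were chosen with earlier results of these data known. Members that passed with a change of at least 1 are given per array. From each other list at most 4 called genes are named, by the larger change, with VIM and ERBIN given in addition. Sequences are from RefSeq (GRCh38.p14).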

Additional observations from a re-analysis of the deposited data

Results flagged for a closer look

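For 12 of the 35 members the difference from the control was not the same in the hairpin clones, beside 11.3% of all rows. The test was limma for sh2 minus sh1 over 3 arrays each. On the log2 scale, sh2 minus sh1 was -0.66 for CLDN3, 0.49 for CLDN10, -0.90 for OCLN, -0.85 for TJP1, -0.91 for MARVELD2, -0.79 for CGN, 1.56 for PARD3, -0.84 for PATJ, 6.51 for MAL2, -4.20 for EPCAM, -2.22 for LSR and -1.06 for ELF3. PARD3 and CLDN10 had the clones on opposite sides of the control mean. With the shift of the 40 nearest genes taken off, sh2 minus sh1 was 0.73 for PARD3 and 0.22 for CLDN10, the second no longer passing. With brighter neighbours CLDN10 (0.18, adjusted p = 0.524), TJP1 (-0.38, adjusted p = 0.106) and CLDN3 (-0.53, adjusted p = 0.052) did not pass. Of the 12 calls, 4 were kept under every alternative tried. Each clone comes from 1 colony, so hairpin and colony cannot be told apart.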

How the results depend on the processing

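Of the member calls, 8 of 15 in sh1 cells, 4 of 8 in sh2 cells and 4 of 12 between the clones were kept under all 18 alternatives, and the direction was kept in each of these 35 results. Among the 18 is the required change of at least 1, which drops any smaller call. CGN, CLDN3, MARVELD2 and PATJ in sh1 cells were lost under that alone. The other sh1 calls lost were PARD3, PRKCI and JAM3, kept under 17, 13 and 6 alternatives. The members lower in sh1 cells numbered 1 in place of 2 with arrays centred on their medians, with only the 2 groups compared and with array number as a replicate block, in each case without JAM3. The block otherwise gave 14 higher members in sh1 cells and 6 higher and 2 lower in sh2 cells. With the shift of the 40 nearest genes taken off, 3 members were lower in sh1 cells (CLDN9, JAM3 and PARD3), and with brighter neighbours 3 (CLDN6, CLDN9 and CGNL1), both calls made without the correction being lost. A prior with trend and robust estimation gave 11 members higher in sh2 cells in place of 6. With a change of at least 1 also required, 8 members were higher and 1 lower in sh1 cells, 1 lower in sh2 cells and 3 lower in sh2 than in sh1 cells (against 9), and 1203, 970 and 756 rows were called in place of 4025, 3498 and 2423, since this call is stricter by construction. Leaving out each array in turn gave 12 to 15 members higher and 1 to 3 lower in sh1 cells, 5 to 7 higher and 1 to 2 lower in sh2 cells, and 2 to 3 higher and 7 to 9 lower in sh2 than in sh1 cells. Rows called then numbered 3044 to 4047, 2455 to 3587 and 1803 to 2271 in these comparisons. The cause of the other shifts was not tested. Averaging several rows of a gene was not run because no member had more than 1. Weak signals limit CGN, JAM2, RAB25 and the dim claudins.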

Other observations

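ERBIN, a basolateral relative of Scribble chosen here after its values were seen, passed in opposite directions. It was at 13.14, 13.07 and 13.24 in sh1 cells and 11.79, 11.86 and 12.14 in sh2 cells, against 12.55, 12.58 and 12.57 in control cells. The 3 groups did not overlap, with a rise of 0.58 ± 0.13 (SE) in sh1 cells (adjusted p = 0.00777) and a fall by 0.64 in sh2 cells (adjusted p = 0.00547). With the shift of its 40 nearest genes taken off, the differences were 0.65 in sh1 cells and -0.45 in sh2 cells (adjusted p = 0.00253 and 0.0265), and with brighter neighbours the sh2 difference was -0.33 and did not pass (adjusted p = 0.0906).

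Of 5 measured genes on a list of matriptase, its inhibitors and related genes, 2 rose in sh1 cells and 1 in sh2 cells, and 0 fell. Of all rows, 9.76% and 8.33% rose. SPINT2, PRSS8 and TMPRSS4 passed in neither clone. ST14, the membrane protease matriptase, and SPINT1, an inhibitor of it, rose in sh1 cells, by 3.79 ± 0.20 (SE, adjusted p = 2.13e-07) and 5.96 ± 0.18 (adjusted p = 2.31e-09). In sh2 cells SPINT1 rose by 0.66 ± 0.18 (adjusted p = 0.0273), a call lost after either neighbour correction (0.51, adjusted p = 0.0693, and 0.47, adjusted p = 0.0803), and ST14 differed by 0.51 ± 0.20 (adjusted p = 0.112). SPINT1 averaged 11.95 ± 0.19 (SD, n = 3) in sh1 cells, 6.64 ± 0.22 in sh2 cells and 5.99 ± 0.30 in control cells. ST14 averaged 8.08 ± 0.40 in sh1 cells, 4.80 ± 0.19 in sh2 cells and 4.29 ± 0.21 in control cells, the last close to the lower quartile.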
